A study of Rattus norvegicus with 4 samples.

Results

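Endoplasmic reticulum (ER)-associated degradation, ERAD, removes proteins that fail to fold in the secretory pathway. Lectins and mannosidases in the ER lumen mark misfolded glycoproteins, a ubiquitin ligase complex in the membrane moves them to the cytosol and tags them, and the ATPase VCP pulls them out for the proteasome. In heart muscle cells the pathway handles part of the load of secreted and membrane proteins, and several of its genes belong to the unfolded protein response, the transcriptional programme that answers stress in the ER. The 10 genes described here were taken by exact match of their symbol in the deposited gene tables, out of 22250 genes, and all 10 had enough footprints to be tested. They are Sel1l and Syvn1 of the ligase complex, Herpud1, Derl1 and Derl2 of its membrane surroundings, the lectins Os9 and Erlec1, and the mannosidase-like proteins Edem1, Edem2 and Edem3.

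The values are ribosome footprints, the mRNA fragments that a translating ribosome shields from RNase I, recovered from polysome fractions of neonatal ventricular cardiomyocytes. The cells came from Wistar rats aged 1 to 2 days and were treated for 72 h with a control siRNA or with an siRNA against Cpeb4, with 2 libraries in each group. CPEB4 is an RNA-binding protein that acts on poly(A) tails and translation of its target mRNAs. The growth protocol, which is the same text for all 4 samples, also mentions Torin1, an mTOR inhibitor, at 250 nM for 24 h, without saying which cultures received it, and the labels do not say whether replicates were separate cultures, so p-values reflect only how these libraries vary, which may be technical.

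The libraries held 3554011 to 5910911 footprints in genes. Cpeb4 itself had 59.9 and 71.2 CPM (counts divided by the library's total and put on a common scale) in the controls and 8.18 and 9.98 CPM after its siRNA, a fitted log2 fold change of -2.86 ± 0.17 (SE; edgeR adjusted p = 1.57e-09), so the libraries followed their labels. Cardiomyocyte markers were abundant, with 9 of the 10 listed found. Their summed level was 56612 and 60857 CPM in controls and 61799 and 54893 CPM after Cpeb4 siRNA. Of these 9, none was called, 8 had a negative log2 fold change and 1 a positive one (median -0.13). Over all genes tested, 49.5% had a positive value. No endothelial, mesothelial, leukocyte or smooth muscle marker was called. Negative values were 6 of 7 tested endothelial, 3 of 4 mesothelial, 3 of 8 leukocyte and 1 of 5 smooth muscle markers. The summed level of 11 fibroblast markers was 16188 to 17843 CPM in controls and 12205 to 12304 CPM after Cpeb4 siRNA. Of these, 10 were tested and 3 fell (Col1a1, Fn1 and Fbln2), beside 1.87% of all genes tested that fell. Of the 10, 8 had a negative log2 fold change and 2, Tcf21 and Thy1, a positive one. The sum rests largely on a few matrix genes. Mean levels were 8227 CPM in controls and 5723 CPM after the siRNA for Col1a1, and 4253 and 2677 CPM for Fn1. Col1a2 is listed at 0 in all 4 libraries. Fibroblasts secrete large amounts of glycoprotein. The part of this shift in the results below was not tested. In such bulk libraries, fewer cells of a type and less RNA per cell cannot be told apart, and without matched RNA values neither can a change in mRNA amount and a change in its translation.

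Promoter sequence is shown first because several ERAD genes and ER chaperones are textbook targets of the unfolded protein response, whose factors bind short elements near the start site. Promoters in the RefSeq-derived table, with build GRCr8 and covering 250 bases before to 50 after each start, were matched for 8 of the 10 genes. Derl1 and Os9 had no entry. The ER stress response element was searched as CCAAT and CCACG with any 9 bases between them, its second form as ATTGG and CCACG with any 1 base between them, and the unfolded protein response element as TGACGTGG, each on both strands. Among the 8 promoters only that of Herpud1 held an exact match to one of these elements. It is the second form, 124 to 114 bases before the start, within the 30 bases at chr19:10614811-10614840 on the minus strand. The same search among 12 ER chaperone genes, of which 9 had a promoter entry, found an element in 6. Examples from Hspa5, the chaperone BiP, at chr3:38452968-38452997 on the plus strand, and from Hyou1, a co-chaperone of BiP, at chr8:53602784-53602813 read on the minus strand opposite the gene, are given for comparison, with the element in capitals and its flanks in lower case, 30 bases each.
Herpud1: cgggcgctgATTGGGCCACGttgggcactg
Hyou1: cacgtccccATTGGGCCACGtagaagaccc
Hspa5: gttcaCCAATCGGAGGCCTCCACGacgggg
Of 33469 promoters of this length in the table, 0.0657% held the first element, 0.0508% the second form and 0.595% the unfolded protein response element. The last of these, in Hyou1, overlaps another copy of the second form in the same promoter. A match describes the letters in this window and is not a measured binding site. The search took exact matches within this window only, so a missing match does not show that a gene lacks such an element.

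Of the 10 ERAD genes, 1 rose and 2 fell after Cpeb4 siRNA, against 3.41% of all 11335 genes tested that changed in either direction. In the increasing direction 1.54% of all genes were called and in the decreasing direction 1.87%. A call is an adjusted p under 0.05 in edgeR's quasi-likelihood test, with Benjamini-Hochberg adjustment over all genes tested. Sel1l and Edem1 ended furthest apart, at fitted log2 fold changes of 0.66 and -0.64. The median over the 10 genes was -0.10, beside a median of 0.00 over all genes tested. It was -0.03 without siCpeb4 replicate 2 and -0.05 without control replicate 1. By levels alone, treated and control libraries were fully separate for 6 of the 10 genes, 3 higher and 3 lower, beside 46.0% of all genes tested (26.5% higher and 19.5% lower). These counts are a description of a short list that was put together with earlier results of these data known.

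**Figure D1:**
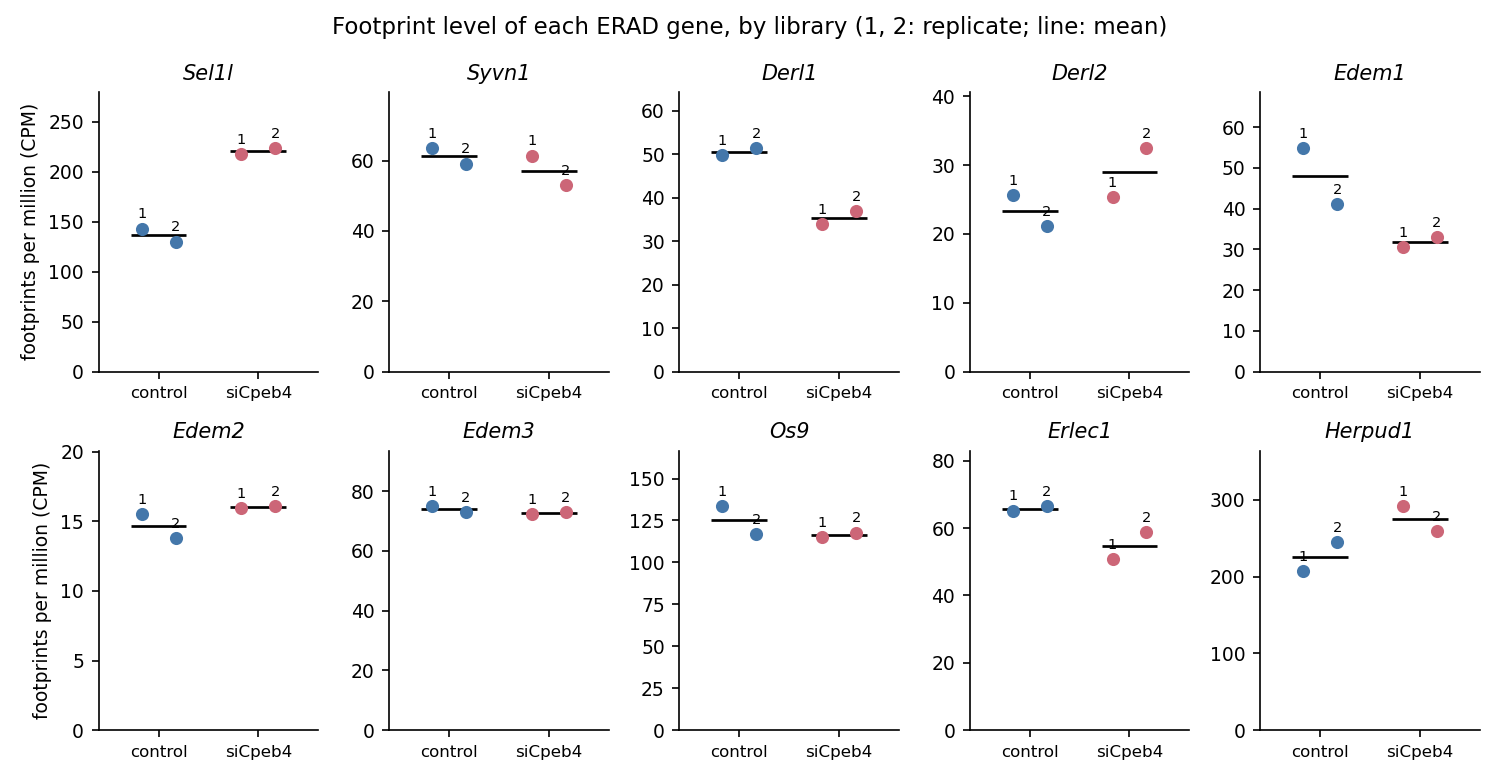
Footprint level (CPM, vertical axes from 0, a scale for each gene) of the 10 ERAD genes in the control and Cpeb4 siRNA libraries. Points are libraries, numbered by replicate, and lines are group means. Sel1l lies at 217 and 224 CPM after the siRNA against 143 and 130.0 CPM in controls, whereas Derl1 and Edem1 lie below their controls.

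Sel1l (ENSRNOG00000004464) encodes the adaptor that holds the ligase complex together and receives substrates from the luminal lectins. Controls held 837 and 462 of its footprints, and Cpeb4 siRNA libraries 1062 and 1322. Scaled to library totals, these are 143 and 130.0 CPM in controls and 217 and 224 CPM after the siRNA. Both treated libraries thus lay well above both controls, and the 2 libraries of each group lay close together. The control mean was 136 ± 9.01 CPM and the mean after the siRNA 220.4 ± 4.55 CPM (SD, n = 2 each). The fitted log2 fold change was 0.66 ± 0.11 (SE), with a 95% interval of 0.44 to 0.88 (edgeR adjusted p = 0.000679). Among all genes tested, 5.45% had an absolute log2 fold change at least as large, and Sel1l ranked 58 by p. The call remained in all 16 alternatives tried, with a log2 fold change of 0.61 to 0.72 and a highest adjusted p of 0.0135 in edgeR, without control replicate 2.

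Syvn1 (ENSRNOG00000020950) encodes HRD1, the ubiquitin ligase whose partner and stabiliser is SEL1L. Its level was 63.6 and 59.1 CPM in controls and 61.4 and 53.0 CPM after Cpeb4 siRNA. The groups overlapped. The log2 fold change was -0.14 ± 0.13, with a 95% interval of -0.41 to 0.13 (edgeR adjusted p = 0.667). It was -0.02 without siCpeb4 replicate 2 and -0.26 without siCpeb4 replicate 1. The interval of Syvn1 lies below that of Sel1l. Within a library, where no scaling enters, there were 2.24 and 2.20 Sel1l footprints for each Syvn1 footprint in controls and 3.54 and 4.22 after the siRNA. The log2 ratio was higher by 0.80 after the siRNA and the groups did not overlap. With 2 libraries against 2, the two-sided exact permutation test cannot give a p below 0.333, which is the value found, so this ratio is a description.

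Herpud1 (ENSRNOG00000018796) encodes HERP, a membrane protein that recruits components to the ligase complex and is strongly induced by ER stress in many cells. It had the most footprints of the 10 genes, 871 to 1531 in a library. Its level was 207 and 245 CPM in controls and 291 and 259 CPM after Cpeb4 siRNA. The treated libraries were higher, but the nearest pair of the 2 groups differed by less than the controls did from each other. The log2 fold change of 0.26 ± 0.11 did not pass (edgeR adjusted p = 0.257), though its 95% interval of 0.02 to 0.49 lies above 0. Without control replicate 1 it was 0.13 (edgeR adjusted p = 0.874).

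The derlins are small membrane proteins thought to form part of the route by which substrates leave the ER. Derl1 (ENSRNOG00000005551) had 292 and 183 footprints in controls and 166 and 218 after Cpeb4 siRNA. As levels, these are 49.8 and 51.5 CPM in controls and 34.0 and 36.9 CPM after the siRNA. The treated libraries both lay below both controls, and the gap between the groups was several times the spread within either. The mean level fell from 50.6 ± 1.20 to 35.4 ± 2.07 CPM (SD, n = 2), a fitted change of -31.3%. The log2 fold change was -0.54 ± 0.14, with a 95% interval of -0.82 to -0.26 (edgeR adjusted p = 0.0286). The size of the decrease hardly moved between alternatives, from -0.63 to -0.49, but the call did not hold in all of them. DESeq2 did not call it (adjusted p = 0.158). Leaving out a library ended the edgeR call each time, at an adjusted p of 0.124 for control replicate 1, 0.149 for control replicate 2, 0.0984 for siCpeb4 replicate 1 and 0.0721 for siCpeb4 replicate 2.

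Derl2 (ENSRNOG00000055466), the close relative of Derl1, was not called. It had 25.6 and 21.1 CPM in controls and 25.4 and 32.5 CPM after Cpeb4 siRNA. The groups overlapped, and siCpeb4 replicate 2 stood alone at the top. The log2 fold change was 0.27 ± 0.18 with a 95% interval of -0.10 to 0.64 (edgeR adjusted p = 0.493). It was 0.09 without siCpeb4 replicate 2 and 0.42 without either control replicate 1 or siCpeb4 replicate 1. Derl2 had 75 to 192 footprints in a library, and a decrease of the size fitted for Derl1 falls outside this interval. Within a library, Derl1 had 1.95 and 2.44 footprints for each Derl2 footprint in controls and 1.34 and 1.14 after the siRNA. The log2 ratio changed by -0.82 and the groups did not overlap (exact permutation p = 0.333, the smallest possible).

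The EDEM proteins trim mannose from misfolded glycoproteins or bind the trimmed chains, and so commit them to degradation. Edem1 (ENSRNOG00000055365) had 322 and 146 footprints in controls and 149 and 195 after Cpeb4 siRNA. Its level was 54.9 and 41.1 CPM in controls and 30.5 and 33.0 CPM after the siRNA. The treated libraries lay below both controls, but the controls were far apart, with control replicate 1 the highest. The mean level fell from 48.0 ± 9.78 to 31.7 ± 1.78 CPM (SD, n = 2). The log2 fold change was -0.64 ± 0.15, with a 95% interval of -0.96 to -0.33 (edgeR adjusted p = 0.0181). Without control replicate 1 it was -0.41 and the call ended (edgeR adjusted p = 0.485), whereas without control replicate 2 it was -0.81 (edgeR adjusted p = 0.00246). Omitting siCpeb4 replicate 1 or 2 likewise took the edgeR adjusted p past the threshold (0.0821 and 0.0721), and DESeq2 gave an adjusted p of 0.113.

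Edem2 (ENSRNOG00000019299), which performs the first mannose trimming step in mammalian cells, had the fewest footprints of the 10 genes, 49 to 95 in a library. Its level was 15.5 and 13.8 CPM in controls and 16.0 and 16.1 CPM after Cpeb4 siRNA. The treated libraries were slightly higher, with a log2 fold change of 0.09 ± 0.21 and a 95% interval of -0.34 to 0.52 (edgeR adjusted p = 0.889), and 0.03 without control replicate 2. At this depth a change as large as the fitted one of Edem1, in the same direction, falls outside the interval. Edem3 (ENSRNOG00000028358), the third family member, had 74.9 and 72.9 CPM in controls and 72.2 and 72.9 CPM after the siRNA, the smallest change of the 10. Its log2 fold change was -0.06 ± 0.12, with a 95% interval of -0.30 to 0.19 (edgeR adjusted p = 0.870).

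Set against its relatives within a library, Edem1 lost ground to both. Edem1 over Edem2 was 3.54 and 2.98 in controls and 1.91 and 2.05 after Cpeb4 siRNA, a log2 difference of -0.71. Edem1 over Edem3 was 0.733 and 0.564 in controls and 0.422 and 0.452 after the siRNA, a log2 difference of -0.56. In both ratios the groups did not overlap (exact permutation p = 0.333 each, the smallest possible). The second of them was -0.37 without control replicate 1.

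OS-9 and ERLEC1 (also known as XTP3-B) are luminal lectins that read the trimmed glycans and hand substrates to SEL1L. Os9 (ENSRNOG00000025570) had 133 and 117 CPM in controls and 115 and 118 CPM after Cpeb4 siRNA, so that the groups overlapped. Its log2 fold change was -0.14 ± 0.11, with a 95% interval of -0.37 to 0.10 (edgeR adjusted p = 0.603). It was -0.04 without control replicate 1 and -0.22 without control replicate 2. Erlec1 (ENSRNOG00000007283) had 65.1 and 66.4 CPM in controls and 50.7 and 58.7 CPM after the siRNA. The treated libraries were both lower, with a log2 fold change of -0.29 ± 0.13 and a 95% interval of -0.55 to -0.03, but this was not a call (edgeR adjusted p = 0.252). Os9 over Erlec1 was 2.05 and 1.76 in controls and 2.27 and 2.01 after the siRNA, and here the groups overlapped (exact permutation p = 0.667). Neither lectin was called in any of the 16 alternatives, with the lowest adjusted p at 0.571 for Os9 and 0.180 for Erlec1.

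**Figure D2:**
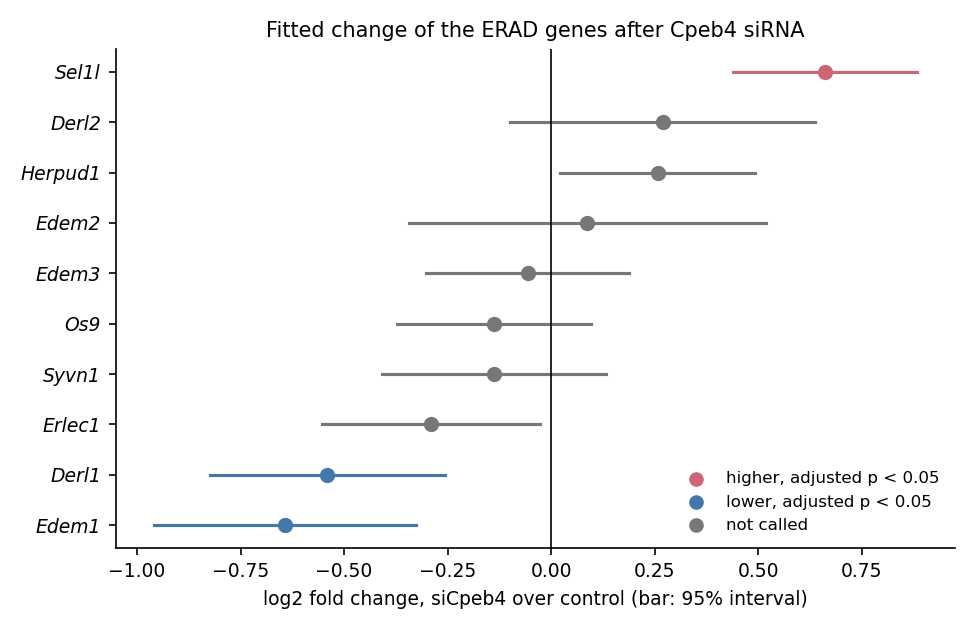
Fitted log2 fold change (horizontal axis, Cpeb4 siRNA over control) of the 10 ERAD genes, ordered by size, with bars for the 95% interval of edgeR's fit. Sel1l stands above 0 at 0.66, Derl1 (-0.54) and Edem1 (-0.64) below it, and the other 7 genes were not called.

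The adaptor was also set against the genes that fell in ratios taken within a library, which no scaling enters. There were 2.60 and 3.16 Sel1l footprints for each Edem1 footprint in controls and 7.13 and 6.78 after Cpeb4 siRNA. For each Derl1 footprint there were 2.87 and 2.52 in controls and 6.40 and 6.06 after the siRNA. These ratios were higher by 1.28 and 1.21 on the log2 scale, and for both pairs the groups did not overlap. Of the 7 ratios computed, 6 had groups that did not overlap, each with an exact permutation p of 0.333 (0.389 with Benjamini-Hochberg adjustment over the 7 ratios). That p is the smallest possible, so neither value measures the strength of a change. By levels, 46.0% of all single genes tested had groups that did not overlap, and the share among ratios was not computed. Each of these 6 pairs holds Sel1l, Derl1 or Edem1 and was listed with the changes of those genes already known. The pairs share genes, so they restate those changes and are not separate observations.

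**Figure D3:**
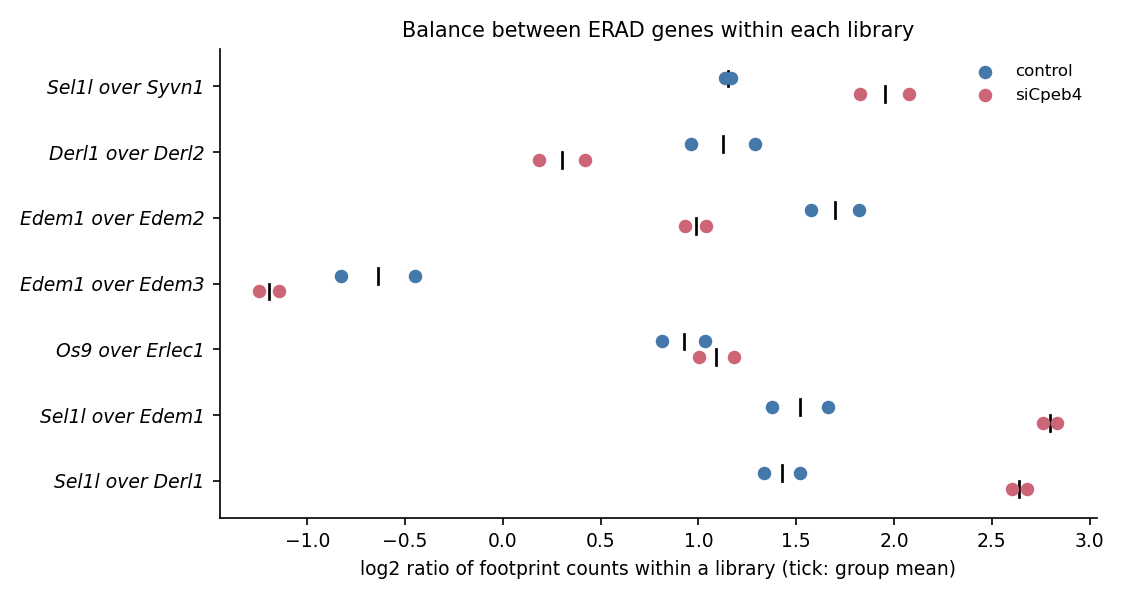
Log2 ratio of footprint counts of 2 ERAD genes within a library (horizontal axis) for 7 pairs, with a point for each control and Cpeb4 siRNA library and a tick for the group mean. The groups are apart for every pair drawn except Os9 over Erlec1, and furthest apart for Sel1l over Edem1.

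Summed over the 10 genes, the footprints were 833 and 818 CPM in controls and 914 and 903 CPM after Cpeb4 siRNA. The sum was higher by 83.2 CPM, or 10.1%, in the treated libraries. This was not a rise across the list, since 6 of the 10 genes had a negative log2 fold change. The mean of Sel1l alone went from 136 to 220.4 CPM and that of Herpud1 from 226 to 275 CPM. Sel1l made up 16.5% ± 0.88 of the sum in controls and 24.3% ± 0.69 after the siRNA (SD, n = 2). The share of Edem1 was 5.81% ± 1.11 in controls and 3.49% ± 0.22 after the siRNA, and that of Derl1 was 6.14% ± 0.23 and 3.90% ± 0.26. Herpud1 held the largest share in both groups, at 27.4% ± 3.59 and 30.3% ± 2.28. These shares follow footprints, which also grow with the length of the coding sequence, so they do not rank the genes by mRNA or protein.

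Beyond these genes, 96 symbols of the wider pathway were listed, of which 89 were found. Some genes were listed under 2 names, such as Ufd1 and Ufd1l, so a symbol not found need not be a missing gene. Of the symbols found, 85 were tested, with 3 that rose and 2 that fell, beside the 1.54% and 1.87% of all genes called in each direction. These shares also stand beside the counts of single lists below. Those that fell, Faf2 and Nploc4, are both cofactors of VCP. Faf2 encodes a membrane-anchored factor, also called UBXD8, that recruits VCP to the ER. Its level was 50.8 and 51.5 CPM in controls and 22.9 and 28.1 CPM after Cpeb4 siRNA. It fell by 1.03 ± 0.15 on the log2 scale, a larger decrease than that of any of the 10 ERAD genes above (edgeR adjusted p = 0.000202). Its 95% interval was -1.33 to -0.72. It was the 1 gene called among 13 tested scaffold and recruitment factors, whose median was -0.02. The call remained in all 16 alternatives, at -1.17 to -0.90. Erlin2, the next of that list by p, which acts in degradation of membrane proteins, was not called, at -0.29 ± 0.13 (edgeR adjusted p = 0.262).

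Nploc4 encodes NPL4, which with UFD1 forms the adaptor that lets VCP grip ubiquitin chains. Its level was 134 and 123 CPM in controls and 84.1 and 87.1 CPM after Cpeb4 siRNA, with treated libraries below both controls. It fell from 128 ± 7.59 to 85.6 ± 2.17 CPM (SD, n = 2), a fitted log2 difference of -0.62 ± 0.11 (edgeR adjusted p = 0.00225). It was the 1 gene called among 14 genes of cytosolic extraction and shuttling, whose median was -0.04, and the call remained in all 16 alternatives, with a highest adjusted p of 0.0404 in edgeR without control replicate 1. The partners of Nploc4, picked after their values were seen, were not called. Vcp had a log2 fold change of -0.07 ± 0.10, with a 95% interval of -0.27 to 0.13, and Ufd1 one of 0.02 ± 0.13, with an interval of -0.24 to 0.28 (edgeR adjusted p = 0.778 and 0.961). Ufd1 was at -0.13 without control replicate 1. The shuttling factor Ubqln4, second by p, had one of 0.22 ± 0.13 (edgeR adjusted p = 0.416).

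Among 5 tested deubiquitinases of the pathway 1 rose. Usp25, which can remove ubiquitin from ERAD substrates, had 36.5 and 35.5 CPM in controls and 55.0 and 57.5 CPM after Cpeb4 siRNA. The groups were far apart compared with the spread within them, and the rise was 1.53-fold, or 0.61 ± 0.13 on the log2 scale (edgeR adjusted p = 0.0100). DESeq2 left it uncalled (adjusted p = 0.0684), and so did edgeR with omission of either control (adjusted p = 0.0808 for replicate 1 and 0.0536 for replicate 2) or of siCpeb4 replicate 2 (0.0540). Usp13 was at -0.19 ± 0.10 on the log2 scale (edgeR adjusted p = 0.398).

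No gene passed in edgeR among 10 tested genes of luminal recognition and glycan trimming, where 2 had an unadjusted p under 0.05, beside 16.1% over all genes. The same list gave 0 calls in DESeq2, which left 1 of the 10 without an adjusted p, and 1 in limma-voom. The gene with the smallest p was Ganab, the catalytic subunit of glucosidase II, which removes glucose from newly made glycans. It had 315 and 325 CPM in controls and 256 and 253 CPM after Cpeb4 siRNA, with a log2 fold change of -0.36 ± 0.10 just short of the threshold (edgeR adjusted p = 0.0505). It passed in limma-voom, in robust edgeR, without the low-count filter, with the stricter count filter and with crossed replicate numbers as a block, and its adjusted p over all 16 alternatives ran from 0.0282 to 0.319. Prkcsh, the regulatory subunit of the same enzyme, was at -0.25 ± 0.10 (edgeR adjusted p = 0.214).

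Of 19 other ER membrane ubiquitin ligases and ubiquitin-conjugating enzymes, none passed in edgeR, in DESeq2 or in limma-voom, and 4 had an unadjusted edgeR p under 0.05, to be read against the same 16.1%. DESeq2 gave no adjusted p for 3 of the 19, Tmem129 among them. The ligase gene Tmem129 had 20.6 and 21.7 CPM in controls and 14.1 and 13.2 CPM after Cpeb4 siRNA, a log2 difference of -0.66 ± 0.20 that was not called (edgeR adjusted p = 0.0764). It passed without the low-count filter (edgeR adjusted p = 0.0365). Ube2k, a ubiquitin-conjugating enzyme, had one of -0.34 ± 0.12 (edgeR adjusted p = 0.126). The median of this list was -0.05, and it was -0.16 without siCpeb4 replicate 2 and -0.01 without control replicate 2.

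The sensors and transcription factors of the unfolded protein response showed no call among 12 tested genes in edgeR, DESeq2 or limma-voom, and none had an unadjusted p under 0.05 in any of these tools. For 2 of the 12 DESeq2 gave no adjusted p. Xbp1, whose spliced form drives many ERAD genes, had 79.8 and 69.5 CPM in controls and 82.6 and 90.0 CPM after Cpeb4 siRNA, a log2 difference of 0.17 ± 0.12 (edgeR adjusted p = 0.520). Gene counts do not separate its spliced from its unspliced form. Creb3l1, a membrane-bound factor related to ATF6, had one of -0.25 ± 0.14 (edgeR adjusted p = 0.414).

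Of 12 tested chaperones induced by the same response, 2 rose in edgeR, beside 1.54% of all genes called higher. DESeq2 called 3 and limma-voom 2, and over the alternatives the count ran from 0, in edgeR without control replicate 2 or without siCpeb4 replicate 2, to 3. All 12 had a positive log2 fold change in the fit of all 4 libraries, from 0.07 to 0.56 with a median of 0.18, beside 49.5% of all genes tested with a positive value. The number positive was 10 without siCpeb4 replicate 2. By levels, treated libraries lay above both controls for 9 of the 12, beside 26.5% of all genes tested. The groups overlapped for 3, Dnajb11, Dnajc3 and Pdia3. Dnajb9, a BiP co-chaperone also called ERdj4, had 69.4 and 63.6 CPM in controls and 93.9 and 107 CPM after Cpeb4 siRNA (log2 fold change 0.56 ± 0.12, edgeR adjusted p = 0.00840). Hyou1, the co-chaperone whose promoter stretch is shown above, had 402 and 383 CPM in controls and 525 and 514 CPM after the siRNA (0.37 ± 0.10, edgeR adjusted p = 0.0365). Dnajb9 had a promoter entry without a match in this search. Elements were also found for Hsp90b1, Dnajb11, Creld2 and Dnajc3, at log2 fold changes of 0.20, 0.16, 0.11 and 0.09, none called in this fit. Whether the elements go with the rises was not tested. Hspa5, added after its values were seen because of its promoter element, was at 0.31 ± 0.10 and was not called in edgeR (adjusted p = 0.0847). It was called in DESeq2 (adjusted p = 0.0449), without the low-count filter and with crossed replicate numbers as a block, and its adjusted p over the 16 alternatives ran from 0.00667 to 0.394. Dnajb9 lost its edgeR call when control replicate 2 (adjusted p = 0.0729) or siCpeb4 replicate 2 (0.0841) was omitted. That of Hyou1 ended without any 1 of the 4 libraries, with edgeR adjusted p from 0.0603 without siCpeb4 replicate 2 to 0.266 without control replicate 2, and after thinning to the smallest library (0.0687). The 10 ERAD genes had 4 positive and 6 negative values. Whether the 2 lists differ was not tested.

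**Figure D4:**
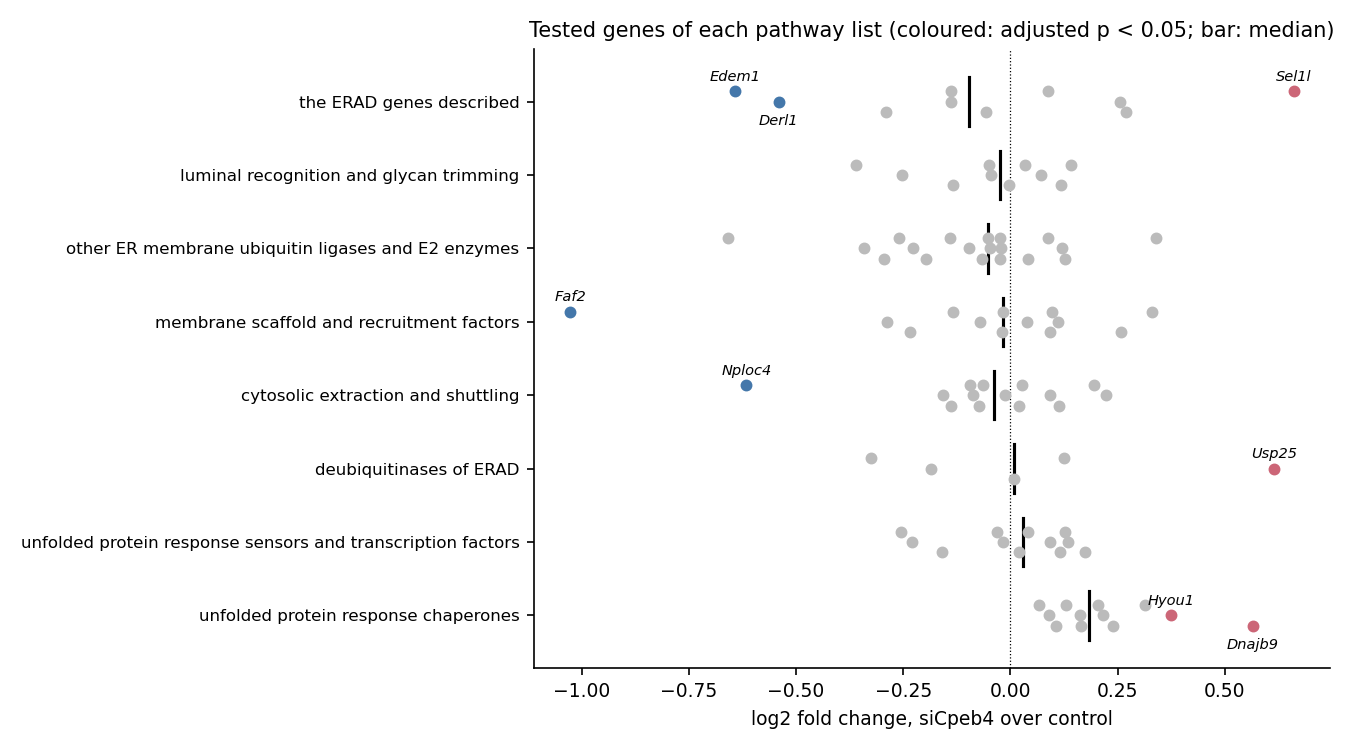
Log2 fold change (horizontal axis, Cpeb4 siRNA over control) of every tested gene in the 10 ERAD genes and 7 further lists, with a bar for each median. Coloured, named points passed the adjusted p threshold; points of a list are spread vertically only for legibility. Faf2 is the lowest point at -1.03, and the 12 chaperones lie above 0 in this fit of all 4 libraries.

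**Figure D5:**
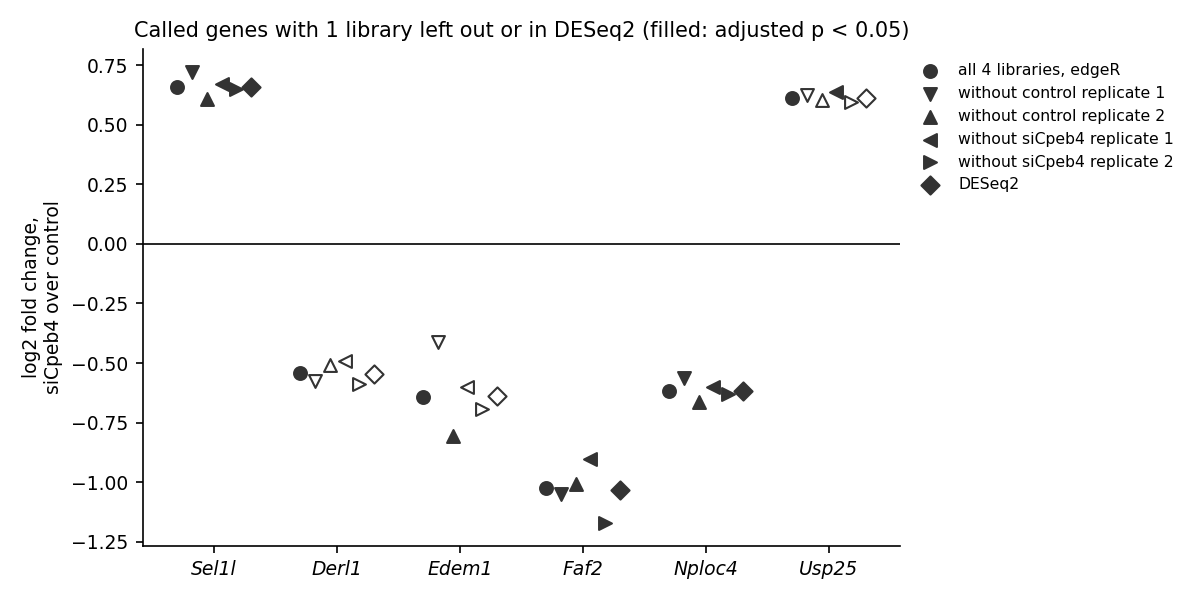
Log2 fold change (vertical axis) of 6 genes called in the fit of all 4 libraries, refitted with each library left out and in DESeq2. Filled symbols have an adjusted p under 0.05. Sel1l, Faf2 and Nploc4 stay filled throughout, Derl1, Edem1 and Usp25 do not, and Edem1 moves most.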

How the data were processed

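Raw footprint counts per Ensembl gene were deposited for 4 libraries, made with Bowtie2, STAR 2.7, HTSeq 0.12 and the assembly Rnor_6.0, per the submitters' processing notes. The role of each tool and the handling of strand are not given in the sources used here. File names give unique reads of 29 to 34 nt (29 to 33 nt for siCpeb4 replicate 2). The 5 HTSeq summary rows were left out; reads without a feature were 4.42% to 4.63% of the total. Replicates differed by more than sampling noise (chi-square per degree of freedom 3.00 for controls and 5.32 for siCpeb4).

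The test was edgeR 4.0.16 (R 4.3.3) with TMM, a minimum count of 10 in filterByExpr and the group as only term, two-sided. Levels are CPM of library totals, whereas fold changes are TMM-scaled. Standard errors come from the F statistic. Named genes were the 10 ERAD genes and, in each other list, called genes and the 2 smallest p. The members and lists were chosen with earlier results of these data known. Alternatives were RLE, upper-quartile and no scaling, DESeq2 1.42.0, limma-voom 3.58.1, robust edgeR, other filters, replicate blocks, thinning, left-out libraries and omission of the 20 most abundant genes. On simulated counts of 11335 genes for this comparison, 48% of genes changed 1.5-fold and 84% of those changed 2-fold were recovered, with 7 false of 139 calls. The simulation gave every gene the same biological coefficient of variation, 8.77%, in both groups. The spread of real genes is not uniform, so these rates describe that setting and need not hold for these libraries. Levels per coding length were not computed, since no coding lengths were used here.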

Additional observations from a re-analysis of the deposited data

How the results depend on the processing

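The named genes of the wider lists and the 10 ERAD genes kept their direction in each alternative that gave an adjusted p (DESeq2 gave none for Edem2 and Tmem129), except Ufd1, which ran from -0.13 (without control replicate 1) to 0.16 (without control replicate 2) and was also negative, at -0.04, without siCpeb4 replicate 1. The count of called ERAD genes stayed at 3 except in DESeq2, where it was 1 (1 higher, 0 lower), and with 1 library left out, where it was 1 to 2 (0 to 1 lower). Leaving out control replicate 1, siCpeb4 replicate 1 or siCpeb4 replicate 2 left Sel1l alone. Among the other pathway genes, 5 were called, against 8 without the low-count filter, 8 at a threshold of 0.10 and 2 to 4 with 1 library left out. Over all genes, 386 were called (174 higher, 212 lower), against 192 in DESeq2 (77 and 115), 606 without the low-count filter (254 and 352), 629 at 0.10 (274 and 355) and 212 to 318 with 1 library left out (79 to 133 higher, 133 to 185 lower). The lowest was without control replicate 1. The cause of these differences was not tested, and fewer libraries give less power by construction.

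The deviations of same-numbered libraries correlated at -0.10, which gave no sign that libraries of the same number were pairs. The negative sign means that control replicate 1 tended weakly to vary with siCpeb4 replicate 2. What lies behind this was not tested. With the replicate number as a block, 403 genes and the same 3 ERAD genes were called, and the call of Hyou1 ended (edgeR adjusted p = 0.0624). With crossed numbers, an alternative added after seeing the data, 481 were called, 3 of them ERAD genes. The summed level of the 10 genes was higher by 65.5 CPM with TMM-scaled totals, against 83.2 with library totals, and by 75.6 to 90.9 with 1 library left out. Without control replicate 2, Edem1 changed by -0.81. Medians near 0 changed sign with the setting: those of luminal recognition and of scaffold factors were each positive in 3 of 16 alternatives, and that of deubiquitinases in 10. Depth limits Edem2 and Derl2 most.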
